A study of Mus musculus with 20 samples.

Results

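The genes described here are 38 mouse genes of the endoplasmic reticulum folding machinery and of its unfolded protein response, out of 24258 genes and transcripts tested. They were taken from a fixed list of symbols and found through the RefSeq transcript accession of each array probe. All 38 had a probe that passed the filter on dim signals, and 36 of them were well above background in all 20 samples. They comprise 18 chaperones and folding enzymes, 10 genes of endoplasmic reticulum-associated degradation, 2 oxidases, 3 translocon genes, and 5 sensors and regulators. They were measured in mouse embryonic fibroblasts (mixed connective tissue cells cultured from embryos), of Balb/c background and kept in medium with uridine. Actinonin was added at 150 µM, and cells were taken 6, 24, 48 and 72 h later, while controls had only the carrier ethanol at 3 µl/ml. Actinonin inhibits the peptide deformylase that acts on newly made mitochondrial proteins, and no group carried a genetic change according to the labels. Each of the 5 groups held 4 samples, and each sample was RNA pooled from 4 plates. The comparisons ask how transcripts move over the exposure, here for the genes that serve folding in a compartment other than the mitochondrion.

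The unfolded protein response has 3 known arms. The sensor ATF6 is cut at the Golgi and its fragment enters the nucleus, the sensor IRE1 (gene Ern1) splices the Xbp1 mRNA into one that encodes an active factor, and the kinase PERK phosphorylates the translation factor eIF2α. ATF6 and XBP1 act on chaperone genes through the endoplasmic reticulum stress element. Other kinases also phosphorylate eIF2α, so genes that follow its downstream factor ATF4 can respond without any folding fault in this compartment, and this wider response is called the integrated stress response. Herpud1, Ero1a and Wfs1 were treated as genes shared with the integrated stress response, and the 18 chaperones and folding enzymes as the ATF6 and XBP1 type. Both classes were set with earlier results of these data known, so the contrast between them is a description and not a test. The degradation genes other than Herpud1 stand in neither class, and Edem1, Sel1l and Derl1 among them rose. Which factor acts on which gene was not tested. Falls in the chaperone class therefore do not speak for all genes that ATF6 or XBP1 may act on.

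Stress elements were looked for in RefSeq promoter windows of the assembly GRCm38.p6, from 250 bases before to 50 bases after each annotated start. Of the 38 genes 32 had such a window. The element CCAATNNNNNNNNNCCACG (ERSE), read on both strands, lay in 10 of these 32 genes and in 0.1187% of all 32851 windows of the table. The shorter element ATTGGNCCACG (ERSE-II) lay in Herpud1 and Dnajb11, and in 0.0365% of all windows. The element TGATGNAA, a core of the sites that ATF4 binds, lay in Herpud1 alone of the 32 genes, and in 3.9694% of all windows. The element TGACGTGG (UPRE) lay in 0 of the 32 genes and in 0.6758% of all windows, and no match of one element overlapped one of another. The following stretches are shown because they hold the element of chaperone genes that fell below and, in Herpud1, of a gene that rose. Capitals mark the matched letters, each line runs 5′ to 3′ on the gene's strand, and an ERSE in the reverse orientation begins with CGTGG.
Hspa5: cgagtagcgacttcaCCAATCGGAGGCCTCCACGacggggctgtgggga
Hsp90b1: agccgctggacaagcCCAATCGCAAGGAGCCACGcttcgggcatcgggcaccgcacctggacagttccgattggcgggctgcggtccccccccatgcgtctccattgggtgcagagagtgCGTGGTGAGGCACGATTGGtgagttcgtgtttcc
Calr: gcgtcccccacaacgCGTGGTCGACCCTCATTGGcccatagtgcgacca
Creld2: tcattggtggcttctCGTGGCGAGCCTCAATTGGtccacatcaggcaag
Dnajc3: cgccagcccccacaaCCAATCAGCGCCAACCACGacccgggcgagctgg
Pdia6: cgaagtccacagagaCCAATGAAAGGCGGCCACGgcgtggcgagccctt
Herpud1: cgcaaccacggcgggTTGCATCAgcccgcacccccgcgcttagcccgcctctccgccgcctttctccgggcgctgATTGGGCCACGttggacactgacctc

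On GRCm38.p6 these stretches lie at chr2:34772010-34772058 on the plus strand for Hspa5, chr10:86705518-86705671 on the minus strand for Hsp90b1 and chr8:84847060-84847108 on the minus strand for Calr. Those of Creld2, Dnajc3 and Pdia6 lie at chr15:88819505-88819553, chr14:118937812-118937860 and chr12:17266476-17266524, and that of Herpud1 at chr8:94386302-94386402, each on the plus strand. All of them lie upstream of the annotated start. The Herpud1 stretch holds both a reverse match to the ATF4 core, which starts 112 bases upstream, and a forward ERSE-II, which starts 52 bases upstream. Hsp90b1 is the gene with a pair of ERSE matches, 1 in each orientation. The other ERSE matches were in Canx, Derl3, Ero1b and Syvn1. A match is a description of letters, and binding was not measured.

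**Figure D1:**
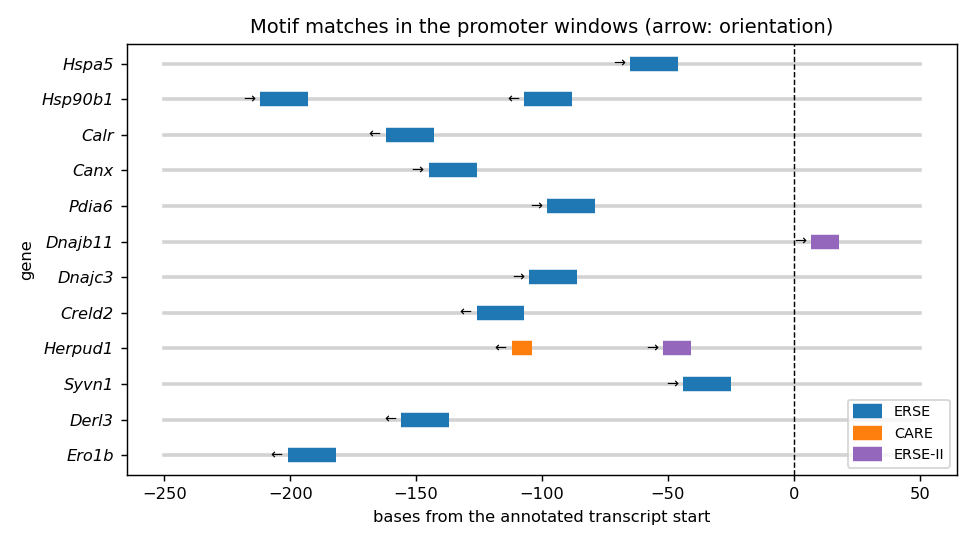
Positions of the matches to the ERSE, ERSE-II and ATF4 core (CARE) elements in the 12 genes that held any, in bases from the annotated transcript start, with an arrow for orientation. Each grey line is the window from 250 bases before to 50 bases after the start. The chaperone genes carry ERSE or, in Dnajb11, ERSE-II, and Herpud1 carries ERSE-II and CARE.

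The 20 samples lay as pairs, 1 per dye, on 10 arrays, and 53.9% to 58.7% of spots were well above background on most of the arrays of slide 2 and 50.8% to 55.2% on slide 1. The array that carried the control labelled 2_Cy3 and the 48 h sample labelled 2_Cy5 stood apart, with 66.4% and 70.5%. The first slide carried only 2 of the controls with 2 of the 6 h samples, and the second carried the rest, so slide was a term of the fit. This matters for the chaperones: the slide term passed the threshold for 13 of the 18, each higher on slide 2, with a median of 0.39 on the log2 scale and a highest value of 1.07 for Hsp90b1. The term passed for 43.9% of all genes tested. The slide cannot be told apart from its scan or from the software version. Results that rest on the term are given below also from slide 2 alone. That keeps 2 of the 4 controls, of which 2_Cy3 lies on the array that stood apart. Since the later times lie wholly on slide 2, values with the term and from slide 2 alone draw on much the same samples. Their closeness is therefore no separate check of the term. Of 10 fibroblast markers 9 were well above background in all 20 samples. So were 3 of 9 macrophage and leukocyte markers with a probe, 2 of 7 epithelial, 2 of 6 endothelial and 1 of 6 plasma and B cell markers. The leukocyte genes Ptprc, Fcgr1 and Laptm5, the endothelial Cdh5, the epithelial Krt8 and the plasma cell genes Jchain, Irf4 and Tnfrsf17 were above it in none. The summed linear signal of the macrophage list ran from 31649 to 46567 in the controls, 30564 to 44772 at 6 h, 33838 to 35519 at 24 h, 35768 to 42322 at 48 h and 34856 to 38499 at 72 h, and its part in the results was not tested. In bulk samples, fewer cells of a type and less RNA per cell cannot be told apart. The labels place the carrier control at 0 h without saying when it was harvested, so time in culture and actinonin cannot be told apart either.

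Most of the 18 chaperones and folding enzymes were lower than control, with 12 to 15 of them called at each time in the fit with a slide term. In that fit 11.1% to 22.5% of all genes tested fell. With no slide term 9, 9, 15 and 7 of the 18 fell at 6, 24, 48 and 72 h. Herpud1, Ero1a and Wfs1, shared with the integrated stress response, rose at every time. Sil1 rose throughout, and Dnajb9 and Hyou1 were not called against control. Calr, which encodes the lectin chaperone calreticulin, fell by 63.3% after 24 h. Hsp90b1, which encodes the chaperone GRP94, fell by 55.1% after 48 h. Ero1a, the oxidase that passes disulfide bonds to protein disulfide isomerase, was 3.42-fold higher after 72 h. Hspa5, which encodes BiP, the central chaperone of the compartment and a common readout of its stress, did not rise at any time.

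Over the 38 genes, 7 rose and 19 fell after 6 h at an adjusted p under 0.05, where 13.7% of all genes tested rose and 11.1% fell. After 24 h 9 rose and 20 fell (all genes 21.2% and 19.1%). After 48 h 8 rose and 22 fell (all genes 21.5% and 20.3%). After 72 h 11 rose and 18 fell (all genes 25.2% and 22.5%). The median log2 change of the 38 genes was -0.17, -0.31, -0.42 and -0.13 at the 4 times, and that of all genes tested was within 0.01 of 0 at each. The test was limma's moderated test with Benjamini-Hochberg adjustment over all genes, on 4 samples per group. The labels do not say whether these are 4 separate RNA pools or fewer pools labelled with both dyes. The p-values take them as separate. These comparisons share the same 4 control samples.

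**Figure D2:**
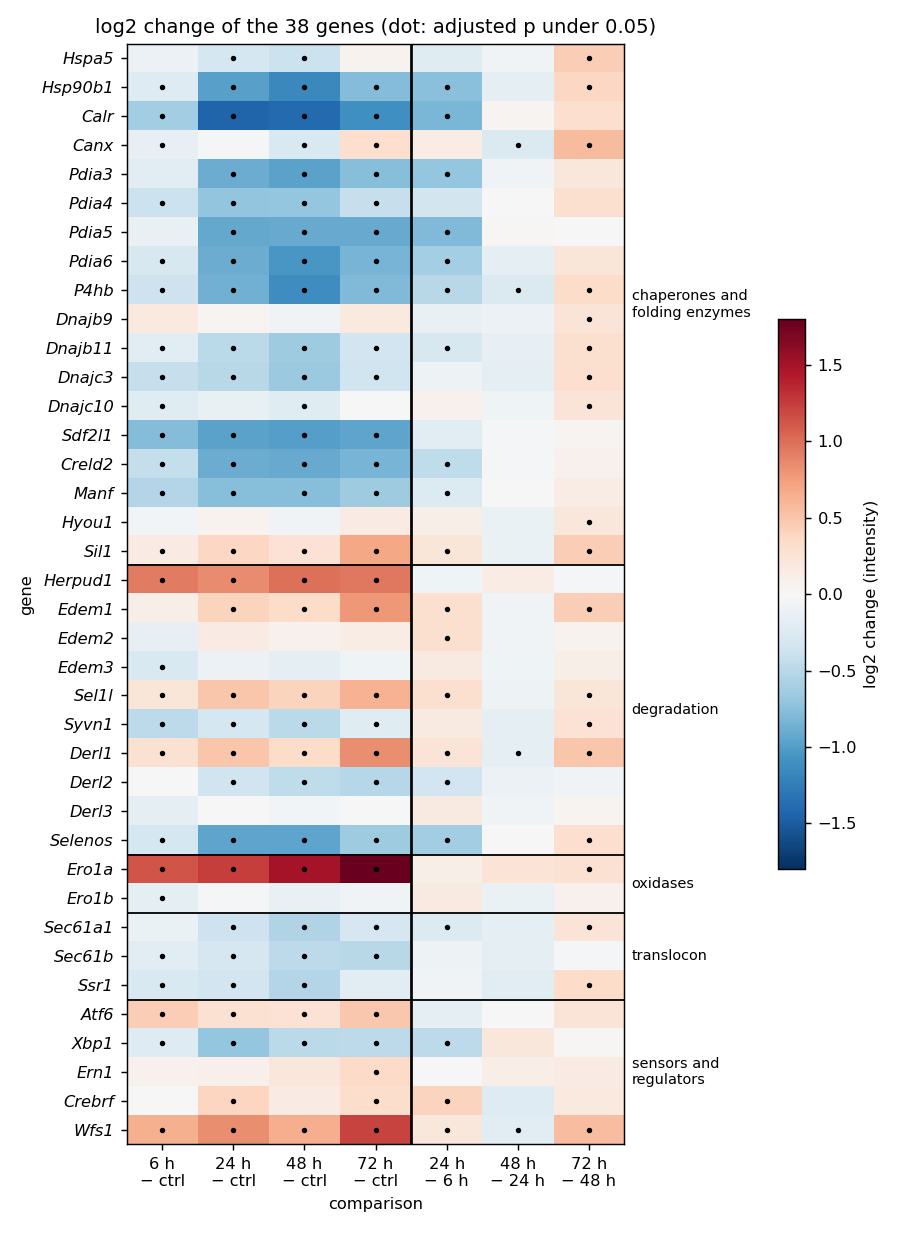
Log2 change of the 38 genes, in rows by role, for each time against control and each time against the one before; the colour gives the size and a dot marks an adjusted p under 0.05. Most chaperones are blue at 24, 48 and 72 h, Herpud1, Ero1a and Wfs1 are red at every time, and the last column, 72 h against 48 h, holds 19 rises and 0 falls.

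Among the 18 chaperones and folding enzymes, 1 rose and 12 fell after 6 h, 1 rose and 13 fell after 24 h, 1 rose and 15 fell after 48 h, and 2 rose and 12 fell after 72 h. Of all genes tested 13.7%, 21.2%, 21.5% and 25.2% rose and 11.1%, 19.1%, 20.3% and 22.5% fell at these times. The median log2 changes of the 18 genes were -0.22, -0.74, -0.74 and -0.53. Per sample, the median over these genes relative to the control mean lay between -0.04 and 0.03 in the controls, between -0.28 and -0.19 at 6 h, and between -0.81 and -0.60 at 24 h. It lay between -0.86 and -0.61 at 48 h and between -0.57 and -0.51 at 72 h, so the treated samples did not overlap the controls. From slide 2 alone the medians were -0.26, -0.77, -0.77 and -0.56 with 9, 13, 15 and 12 falls. With no slide term they were -0.22, -0.50, -0.66 and -0.29 with 9, 9, 15 and 7 falls. Without the array that stood apart they were -0.21, -0.73, -0.69 and -0.52 with 8, 13, 14 and 12 falls. Fibroblast markers moved in parallel: 2, 8, 9 and 7 of the 10 fell at the 4 times, with medians of -0.17, -0.45, -0.87 and -0.34, and their part in the result was not tested.

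Hspa5 had log2 intensities of 15.86, 16.06, 16.13 and 16.30 in the 4 control samples, after removal of the fitted dye and slide terms as for all levels given here. The Hspa5 levels were 15.87, 15.94, 16.01 and 16.11 at 6 h, and 15.64, 15.80, 15.81 and 15.81 at 24 h. At 48 h they were 15.60, 15.62, 15.75 and 15.85, and at 72 h 16.03, 16.17, 16.18 and 16.21. The samples of 24 and 48 h lay below every control, and those of 6 and 72 h overlapped the controls. Hspa5 changed by -0.10 ± 0.08 at 6 h (log2, ± standard error here and below; adjusted p = 0.411), fell by 0.32 ± 0.09 at 24 h (adjusted p = 0.00932) and by 0.38 ± 0.08 at 48 h (adjusted p = 0.000959). At 72 h it differed from control by 0.06 ± 0.09 (adjusted p = 0.603). The 24 h call was lost with no slide term (-0.18, adjusted p = 0.286), without the control 2_Cy3 (-0.29, adjusted p = 0.0532) and with no scaling between arrays (-0.25, adjusted p = 0.111).

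Hsp90b1 had control levels of 16.15, 16.16, 16.24 and 16.28, and 6 h levels of 15.94, 15.95, 16.003 and 16.03. Its levels were 15.19, 15.19, 15.20 and 15.33 at 24 h, 14.88, 14.96, 15.14 and 15.24 at 48 h, and 15.35, 15.41, 15.43 and 15.53 at 72 h. No treated sample reached the lowest control, and the samples of 48 h were the most spread. Hsp90b1 fell by 0.98 ± 0.08 at 24 h (adjusted p = 1.82e-08), by 1.15 ± 0.07 at 48 h (adjusted p = 3.54e-10) and by 0.78 ± 0.08 at 72 h (adjusted p = 1.85e-07). Its smaller fall at 6 h, -0.23 ± 0.06 (adjusted p = 0.0132), was lost from slide 2 alone (adjusted p = 0.153) and without any 1 of the controls 1_Cy3 and 2_Cy3 or the 6 h sample 1_Cy5 (highest adjusted p = 0.0717). Since Hsp90b1 had the highest slide term of the 38 genes, its later values depend on the slide: they were -0.97, -1.15 and -0.77 from slide 2 alone, and -0.56, -0.95 and -0.36 with no slide term, of which the first and last were not called (adjusted p = 0.0783 and 0.248). Pdia3, whose slide term was 1.02, was alike: at 24 and 72 h it was at -0.89 and -0.76, at the same values from slide 2 alone, and at -0.49 and -0.36, not called, with no slide term.

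Calr had the largest falls of the 38 genes at 24, 48 and 72 h. Its control levels were 14.71, 14.77, 14.90 and 14.95, and its 6 h levels 14.01, 14.12, 14.22 and 14.44. They were 13.26, 13.28, 13.46 and 13.52 at 24 h, 13.20, 13.35, 13.50 and 13.65 at 48 h, and 13.69, 13.69, 13.73 and 13.77 at 72 h. Every treated sample lay below every control. Calr fell by 0.62 ± 0.10, 1.45 ± 0.12, 1.41 ± 0.10 and 1.11 ± 0.12 at the 4 times (highest adjusted p = 0.0001). Canx, which encodes calnexin, the membrane-bound lectin partner of calreticulin, followed another course: it fell by 0.15 ± 0.05 at 6 h (adjusted p = 0.0389, lost without any 1 of 7 samples), was at -0.02 ± 0.06 at 24 h (adjusted p = 0.862), fell by 0.27 ± 0.06 at 48 h (adjusted p = 0.000677) and rose by 0.30 ± 0.06 at 72 h (adjusted p = 0.000656).

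The protein disulfide isomerases, which form and reshuffle disulfide bonds, fell together from 24 h on. P4hb, which encodes the founding member of the family, had control levels of 14.82, 14.87, 14.88 and 14.90 and 6 h levels of 14.39, 14.45, 14.56 and 14.58. At 24 h its levels were 13.91, 13.95, 14.07 and 14.07, at 48 h 13.52, 13.73, 13.78 and 13.95, and at 72 h 14.04, 14.07, 14.08 and 14.09. It fell by 0.37 ± 0.07, 0.86 ± 0.08, 1.12 ± 0.07 and 0.79 ± 0.08 (highest adjusted p = 0.000361), with no overlap of treated samples and controls. Pdia5 was at 12.68, 12.73, 12.75 and 12.77 in the controls, at 12.52, 12.58, 12.62 and 12.64 at 6 h and at 11.70, 11.79, 11.84 and 11.88 at 24 h. Its levels were 11.66, 11.71, 11.92 and 11.98 at 48 h and 11.78, 11.78, 11.82 and 11.88 at 72 h. Pdia5 thus reached its lower level by 24 h and showed no further called step: its changes were -0.13 ± 0.06 at 6 h (adjusted p = 0.119), then -0.92 ± 0.07, -0.91 ± 0.06 and -0.91 ± 0.07 (highest adjusted p = 1.31e-08). Pdia3, Pdia4 and Pdia6 fell at 24, 48 and 72 h by 0.42 to 1.05. A second Pdia6 probe gave larger falls, from -1.04 to -1.26 at these times. Pdia4 at 72 h was lost with no slide term (-0.22, adjusted p = 0.306) and without the control 2_Cy5 (adjusted p = 0.052).

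Sdf2l1, Manf and Creld2, which encode small soluble proteins of the compartment that ATF6 is known to induce, fell at every time, as 12 of the 18 chaperones already did at 6 h. Sdf2l1, a partner of the BiP cofactors, had control levels of 10.54, 10.64, 10.65 and 10.74 and 6 h levels of 9.77, 9.84, 9.88 and 9.93. It was at 9.52, 9.62, 9.77 and 9.80 at 24 h, at 9.58, 9.59, 9.69 and 9.71 at 48 h and at 9.62, 9.66, 9.74 and 9.75 at 72 h. It fell by 0.77 ± 0.06 at 6 h (adjusted p = 3.17e-08), the largest fall of the 38 genes at that time, and by 0.96 ± 0.07, 0.99 ± 0.06 and 0.95 ± 0.07 later (highest adjusted p = 6.38e-09). Manf, a secreted survival factor that also binds BiP, had control levels of 12.79, 12.96, 12.97 and 13.003, and 6 h levels of 12.34, 12.34, 12.42 and 12.47. Its later levels were 12.11 to 12.19 at 24 h, 12.04 to 12.29 at 48 h and 12.26 to 12.31 at 72 h. Manf fell by 0.52 ± 0.06, 0.77 ± 0.07, 0.77 ± 0.06 and 0.64 ± 0.07 (highest adjusted p = 2.41e-06). Creld2 fell by 0.43, 0.89, 0.91 and 0.83. The treated samples of Sdf2l1, Manf and Creld2 lay below every control at each time.

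The J-domain cofactors, which load substrates onto BiP, were mixed. Dnajb9 (ERdj4), a target of XBP1, was not called against control at any time. Its control levels were 10.36, 10.45, 10.53 and 10.53, its 6 h levels 10.54, 10.59, 10.65 and 10.78 and its 24 h levels 10.47, 10.49, 10.51 and 10.57. At 48 h they were 10.28, 10.33, 10.46 and 10.57, and at 72 h 10.54, 10.66, 10.66 and 10.71. The 6 h and 72 h samples lay just above the highest control, with changes of 0.17 ± 0.07 at 6 h (adjusted p = 0.0696), 0.04 ± 0.08 at 24 h (adjusted p = 0.714), -0.06 ± 0.07 at 48 h (adjusted p = 0.581) and 0.17 ± 0.08 at 72 h (adjusted p = 0.085). The 6 h value was called without any 1 of 4 single samples, and the sign at 24 and 72 h turned when a second, lower probe was averaged in. That probe gave 0.11, -0.09, -0.22 and -0.21 at the 4 times, none called. Among the other settings the 48 h change of Dnajb9 reached -0.14, and its lowest adjusted p was 0.0434. Its lack of a call at 48 h thus did not hold in all of them. Dnajb11 and Dnajc3, which hold ERSE-II and ERSE, fell at every time, by 0.20 to 0.63 and by 0.36 to 0.66. The Dnajb11 call at 6 h was lost without the control 2_Cy3, the control 2_Cy5 or the 6 h sample 1_Cy3 (highest adjusted p = 0.0729) and under 1 of 5 other ways to correct, scale or source the signals (adjusted p = 0.0897). Dnajc10, a disulfide reductase of the degradation route, fell at 6 and 48 h by 0.21 and 0.22, and neither call held without the control 2_Cy3 (highest adjusted p = 0.067 and 0.213). Hyou1, a BiP nucleotide exchange factor, was not called against control, with changes from -0.06 to 0.15, and its probe was well above background in all 20 samples. Sil1, the other exchange factor, was the 1 chaperone gene that rose at all 4 times, by 0.15, 0.37, 0.25 and 0.69, though its 6 h call was lost without any 1 of 6 samples.

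**Figure D3:**
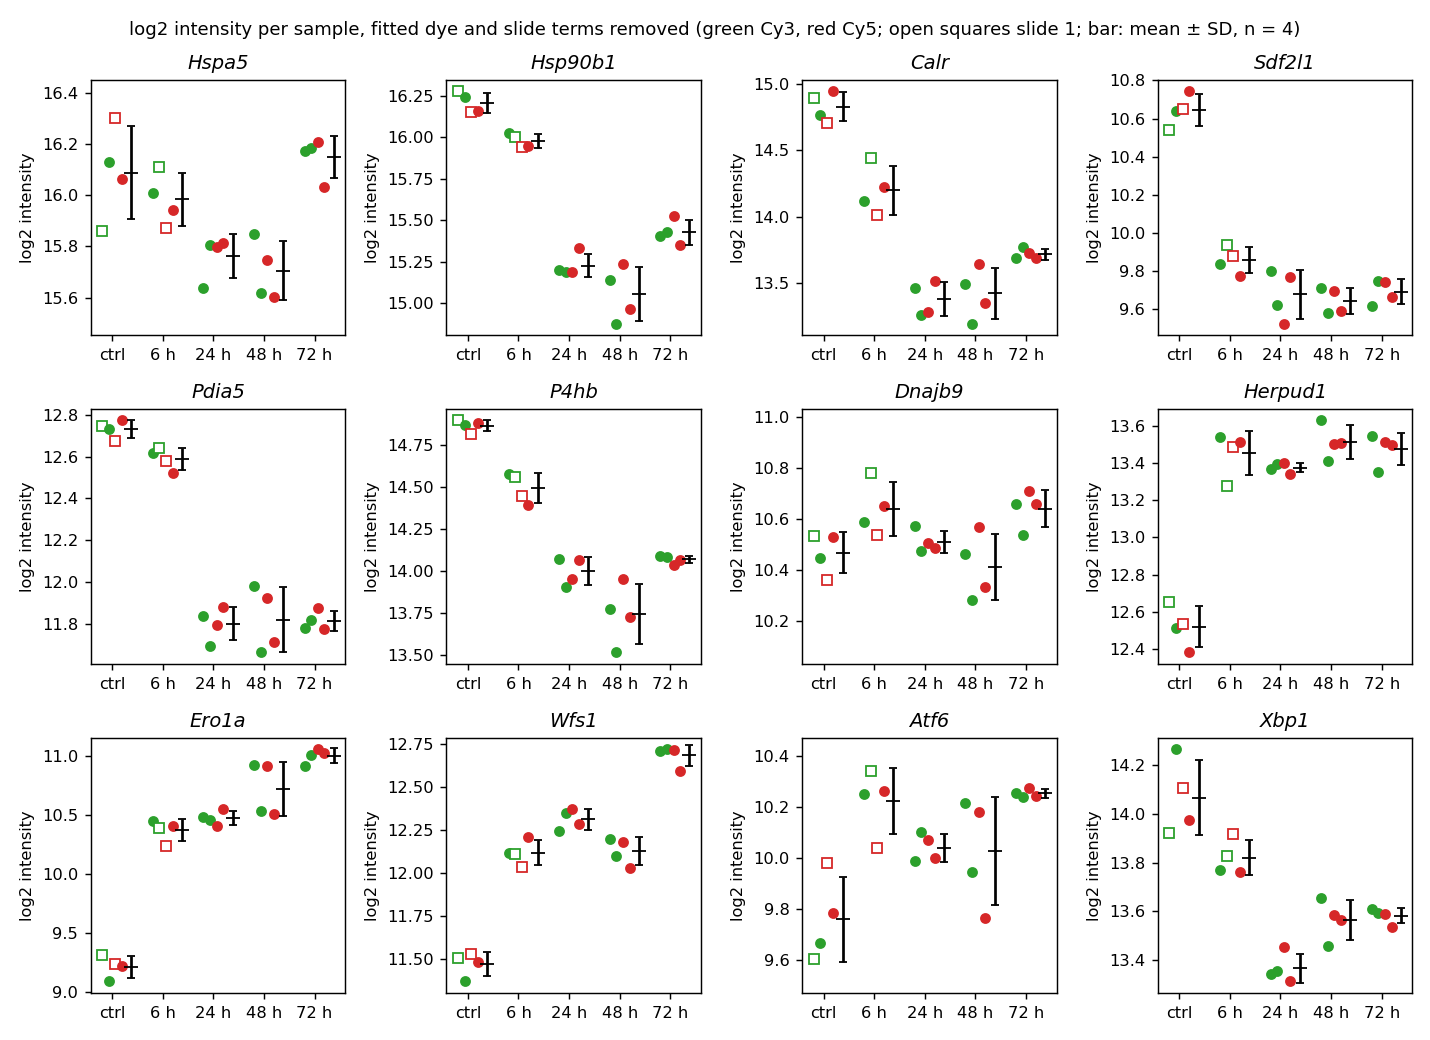
Log2 intensity in each of the 20 samples for 12 of the genes, with the fitted dye and slide terms removed; green is Cy3, red is Cy5, open squares are samples of slide 1, and the bar gives the mean ± SD (n = 4). Calr, P4hb, Sdf2l1 and Pdia5 lie lower in every sample from 24 h on, Herpud1, Ero1a and Wfs1 lie higher in every treated sample, and Hspa5 at 72 h lies among its controls.

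The 3 genes shared with the integrated stress response rose at every time, with median log2 changes of 0.93, 0.85, 0.99 and 1.21. This class was chosen with earlier results of these data known, so its common rise is a description. Herpud1, which encodes a membrane protein that organises the degradation complex, had control levels of 12.38, 12.51, 12.54 and 12.65. Its levels were 13.28, 13.48, 13.51 and 13.54 at 6 h and 13.34, 13.37, 13.39 and 13.40 at 24 h. At 48 h they were 13.41, 13.50, 13.51 and 13.63, and at 72 h 13.35, 13.50, 13.51 and 13.54. Herpud1 was already at its higher level after 6 h, and no step between times was called. Its rises were 0.93 ± 0.07, 0.85 ± 0.08, 0.99 ± 0.07 and 0.95 ± 0.08 (highest adjusted p = 1.6e-07).

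Ero1a went on rising. It had control levels of 9.09, 9.22, 9.24 and 9.31 and 6 h levels of 10.24, 10.39, 10.41 and 10.45. Its levels were 10.41, 10.45, 10.48 and 10.55 at 24 h, 10.51, 10.54, 10.91 and 10.92 at 48 h, and 10.91, 11.01, 11.02 and 11.06 at 72 h. The rises against control were 1.14 ± 0.08, 1.25 ± 0.10, 1.49 ± 0.09 and 1.77 ± 0.10 (highest adjusted p = 1.48e-08), the largest of the 38 genes at every time. The step from 48 to 72 h was 0.28 ± 0.09 (adjusted p = 0.0268), lost without any 1 of 5 samples of these times (highest adjusted p = 0.104). Its paralogue Ero1b, which holds an ERSE match, did not follow: it fell by 0.18 ± 0.06 at 6 h (adjusted p = 0.0328, lost without any 1 of 5 samples) and was at -0.01, -0.13 and -0.06 later, not called.

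Wfs1, which encodes wolframin, a membrane protein that restrains ATF6 in beta cells, had control levels of 11.37, 11.48, 11.50 and 11.52. It was at 12.03, 12.11, 12.12 and 12.21 at 6 h, at 12.24, 12.28, 12.35 and 12.37 at 24 h and at 12.03, 12.10, 12.18 and 12.20 at 48 h. At 72 h it was highest, at 12.59, 12.71, 12.72 and 12.72. It rose by 0.64 ± 0.05, 0.84 ± 0.06, 0.65 ± 0.06 and 1.21 ± 0.06 (highest adjusted p = 1.02e-07). For these 3 genes the slide term was near 0 (0.02, 0.13 and 0.03 for Herpud1, Ero1a and Wfs1). From slide 2 alone their median change was 1.12, 0.95, 1.08 and 1.26, and with no slide term 0.93, 0.86, 0.99 and 1.22. At 6 h, the time at which both slides hold both groups, the median was 0.79 within slide 1 and 1.11 within slide 2, and that of the chaperones was -0.22 and -0.27. A test of whether that 6 h change differed between the slides passed the threshold for 0 of the 38 genes and for 0.0289% of all genes. At an unadjusted p under 0.05 were 6 of the 38 (limma, lowest adjusted p = 0.858 for Herpud1). The share of all genes at that unadjusted threshold is not given. Each slide held 2 controls and 2 samples of 6 h, so the test cannot show that the slides were alike. The Herpud1 change differed by 0.32 ± 0.11, with the larger rise on slide 2.

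**Figure D4:**
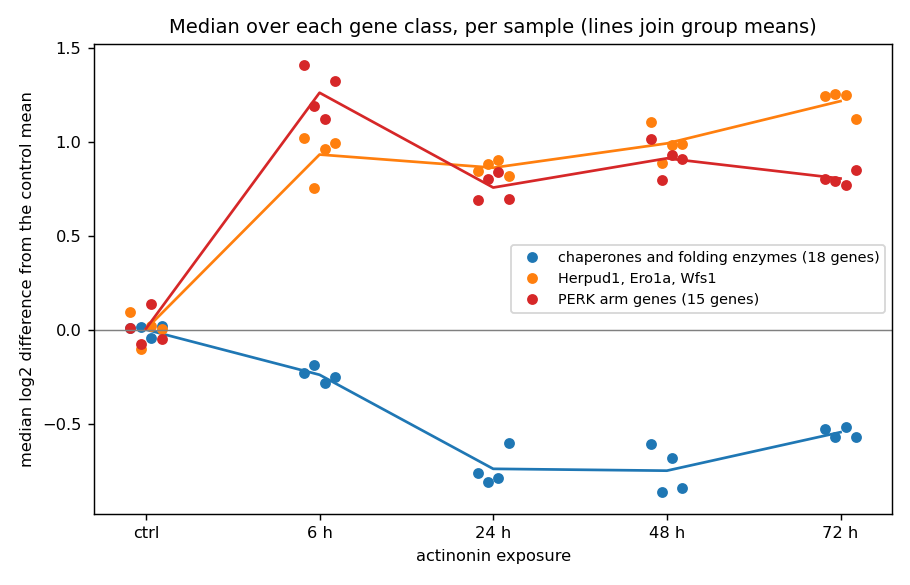
Median over each gene class in each sample, as log2 difference from the control mean, for the 18 chaperones and folding enzymes, for Herpud1, Ero1a and Wfs1, and for 15 genes of the PERK arm; lines join the means of the 4 samples. The chaperone medians lie below 0 in every treated sample and the others above 0.5 in every treated sample. Genes listed under the PERK arm can also follow other kinases of eIF2α, and which kinase acted was not tested.

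Genes listed under the PERK arm, 15 in number, went with Herpud1, Ero1a and Wfs1 in direction. At the 4 times 14, 12, 13 and 12 rose and 1 fell each time, with medians of 1.25, 0.75, 0.97 and 0.81. Of all genes 13.7%, 21.2%, 21.5% and 25.2% rose and 11.1%, 19.1%, 20.3% and 22.5% fell. Other kinases that phosphorylate eIF2α can also act on genes downstream of ATF4, and which kinase acted was not tested. Among those with the smallest adjusted p were Ddit3, which encodes the factor CHOP, Chac1, a glutathione-degrading target of it, and Ppp1r15a, which encodes the phosphatase subunit that reverses eIF2α phosphorylation. Ddit3 rose by 1.68 ± 0.08 at 6 h (adjusted p = 2.74e-10) and by 2.06 ± 0.09 at 48 h (adjusted p = 6.41e-12). Chac1 rose by 1.796 ± 0.07 at 6 h and Ppp1r15a by 2.02 ± 0.10 at 72 h. The gene that fell was Eif2ak3, which encodes PERK itself, at -0.58, -0.35, -0.70 and -0.41, and it was named after its values were seen.

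The degradation genes moved in both directions. Of the 10, 3 rose and 3 fell at 6 h, and 4 rose and 3 fell at 24, 48 and 72 h. Among all genes 13.7% rose and 11.1% fell at 6 h, and from 24 h on 21.2% to 25.2% rose and 19.1% to 22.5% fell. Besides Herpud1, those that rose from 24 h on were Edem1, a lectin that hands glycoproteins to degradation, Sel1l, the adaptor of the ligase, and Derl1, a channel component. Edem1 rose by 0.40, 0.33 and 0.78, Sel1l by 0.50, 0.41 and 0.63 and Derl1 by 0.50, 0.34 and 0.83 at 24, 48 and 72 h. The second probe of Derl1 gave 0.11, 0.15 and 0.16. Those that fell were Syvn1, which encodes the ligase HRD1 that works with SEL1L, at -0.47, -0.31, -0.48 and -0.22 over the 4 times, Selenos, at -0.31, -0.94, -0.94 and -0.64, and Derl2, at -0.35, -0.46 and -0.52 from 24 h on. Thus Sel1l and Syvn1, whose proteins form 1 complex, were called in opposite directions at every time in the fit of all samples with a slide term. Of 3 probes of Derl2, 1 did not show its fall (0.13, -0.01 and 0.16). The Syvn1 fall at 72 h was lost without the control 2_Cy3 or 2_Cy5 (highest adjusted p = 0.0847). Under 1 of 5 other ways to correct, scale or source the signals, the Syvn1 call was lost at 24 h (adjusted p = 0.0523). The same held at 72 h (adjusted p = 0.181). Edem3 fell by 0.27 at 6 h (adjusted p = 0.0109), a call lost without the control 1_Cy5 or the 6 h sample 2_Cy5 (highest adjusted p = 0.0567) and under 1 of 5 other ways to correct, scale or source the signals (adjusted p = 0.055). At the later times Edem3 was called from slide 2 alone but not with both slides. Edem2 was not called against control, and Derl3 was well above background in 5 of 20 samples and in none of 6 h.

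The translocon genes, whose products pass new chains into the compartment, moved in the direction of the chaperones. Of these 0 rose at any time, and 2, 3, 3 and 2 of the 3 fell, where 11.1% to 22.5% of all genes fell. Sec61a1 was at -0.13, -0.38, -0.54 and -0.30, the first not called, and Sec61b at -0.21, -0.30, -0.47 and -0.50. A second Sec61b probe gave -0.36, -0.18, -0.15 and -0.16, each called, so the probes differed in the size and course of the fall. Ssr1 was at -0.28, -0.34, -0.53 and -0.19, the last not called. Both other Ssr1 probes were called at 72 h, at -0.51 (adjusted p = 1.53e-05) and -0.25 (adjusted p = 0.00377). With no slide term the calls of Ssr1 at 24 h and Sec61a1 at 72 h were lost (adjusted p = 0.104 and 0.0638).

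The sensors themselves did not move together. Atf6 had control levels of 9.60, 9.67, 9.79 and 9.98. Its levels were 10.04, 10.25, 10.26 and 10.34 at 6 h and 9.99, 10.00, 10.07 and 10.10 at 24 h. They were 9.76, 9.95, 10.18 and 10.22 at 48 h, with overlap of the controls, and 10.24, 10.24, 10.26 and 10.28 at 72 h. Atf6 rose by 0.45 ± 0.08 at 6 h (adjusted p = 0.000583) and by 0.49 ± 0.10 at 72 h (adjusted p = 0.000579). The rises of 0.27 ± 0.10 at 24 h (adjusted p = 0.0384) and 0.26 ± 0.09 at 48 h (adjusted p = 0.0262) were lost without any 1 of 8 and of 4 samples, controls 2_Cy3 and 2_Cy5 among them (highest adjusted p = 0.15 and 0.155).

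Xbp1 fell. Its control levels were 13.92, 13.98, 14.11 and 14.27, and its 6 h levels 13.76, 13.77, 13.83 and 13.92. Its levels were 13.31, 13.34, 13.35 and 13.45 at 24 h, 13.46, 13.56, 13.58 and 13.66 at 48 h, and 13.54, 13.59, 13.59 and 13.61 at 72 h. Every sample from 24 h on lay below every control, and at 6 h the highest sample came close to the lowest control. Xbp1 fell by 0.69 ± 0.08, 0.49 ± 0.07 and 0.48 ± 0.08 at 24, 48 and 72 h (highest adjusted p = 6.14e-05). The 6 h fall of 0.23 ± 0.06 (adjusted p = 0.0153) was lost without the control 2_Cy3, the control 1_Cy5 or the 6 h sample 1_Cy3 (highest adjusted p = 0.062). It was also lost with no scaling between arrays (adjusted p = 0.0986), with array as a fixed block (adjusted p = 0.138), without the array that stood apart (adjusted p = 0.0682) and with only the control and 6 h samples in the fit (adjusted p = 0.12). Where the probe lies relative to the spliced intron was not given, so the spliced and unspliced mRNA were not told apart.

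Ern1, the gene of the sensor IRE1 that splices Xbp1, rested on 1 control sample. Its control levels were 8.50, 8.62, 8.67 and 9.13, the last in the control 2_Cy3 on the array that stood apart. It was at 8.66, 8.71, 8.78 and 8.92 at 6 h, at 8.75, 8.78, 8.82 and 8.83 at 24 h, at 8.75, 8.81, 8.85 and 9.22 at 48 h, and at 9.02, 9.03, 9.06 and 9.12 at 72 h. With all samples it changed by 0.08 ± 0.10, 0.09 ± 0.12 and 0.20 ± 0.10 at 6, 24 and 48 h (lowest adjusted p = 0.137) and rose by 0.35 ± 0.12 at 72 h (adjusted p = 0.0189). Without that array it rose by 0.21, 0.31, 0.33 and 0.58 (highest adjusted p = 0.00449), and without the control 2_Cy5 the 72 h rise was 0.23 and not called (adjusted p = 0.164). Crebrf, a regulator that promotes turnover of the factor CREB3, was dim, well above background in 9 of 20 samples and in none of 6 h. It rose against control by 0.39 at 24 h and 0.32 at 72 h, where 1 of 4 controls was well above background, and both calls were lost without the control 2_Cy5 (highest adjusted p = 0.101 and 0.195). Other ways to correct, scale or source the signals moved these values to between 0.30 and 0.60 at 24 h and between 0.23 and 0.50 at 72 h. The size of its difference between 24 and 6 h is not given, since no 6 h sample was well above background.

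Between successive times the 38 genes moved at the first and the last step. From 6 to 24 h 7 rose and 13 fell (all genes 16.4% and 16.4%), among them falls of 0.82 ± 0.12 for Calr and 0.79 ± 0.07 for Pdia5. The falls of this step lean on the slide: with no slide term 11 of the 38 genes were called in place of 20, and 2 of the 18 chaperones fell in place of 9. From slide 2 alone 22 of the 38 genes were called. From 24 to 48 h 0 rose and 4 fell (all genes 5.77% and 6.36%): Canx, P4hb, Derl1 and Wfs1, by 0.17 to 0.26, of which Canx kept its call whichever sample was left out. From 48 to 72 h 19 rose and 0 fell, where 12.9% of all genes rose and 10.3% fell, and both groups lie wholly on slide 2. With no scaling between arrays 9 of the 38 genes rose over this step and 0 fell. The 19 held 10 of the 18 chaperones, among them Hspa5 (0.44 ± 0.08, adjusted p = 0.000956), Canx (0.57 ± 0.06, adjusted p = 3.53e-06) and Hsp90b1 (0.37 ± 0.07, adjusted p = 0.000987). Sdf2l1, Pdia5, Creld2 and Manf were not called at this step, at 0.05, -0.01, 0.07 and 0.13. Fibroblast markers rose over the same step in 8 of 10, with a median of 0.52, and their part was not tested.

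Changes of the chaperones with and without an ERSE match are given as values only. The 7 chaperones with a match in the window had median changes of -0.28, -0.89, -0.91 and -0.78 at the 4 times, and the 8 with a window and no match -0.21, -0.79, -0.80 and -0.59. Among genes with a match, the change at 24 h ran from -1.45 for Calr to 0.01 for Derl3, whose probe was dim. Canx and Hspa5, which hold an ERSE as Calr does, were at -0.02 and -0.32. Sdf2l1 and P4hb, among the genes with the largest falls, held none of the 4 elements in their windows.

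**Figure D5:**
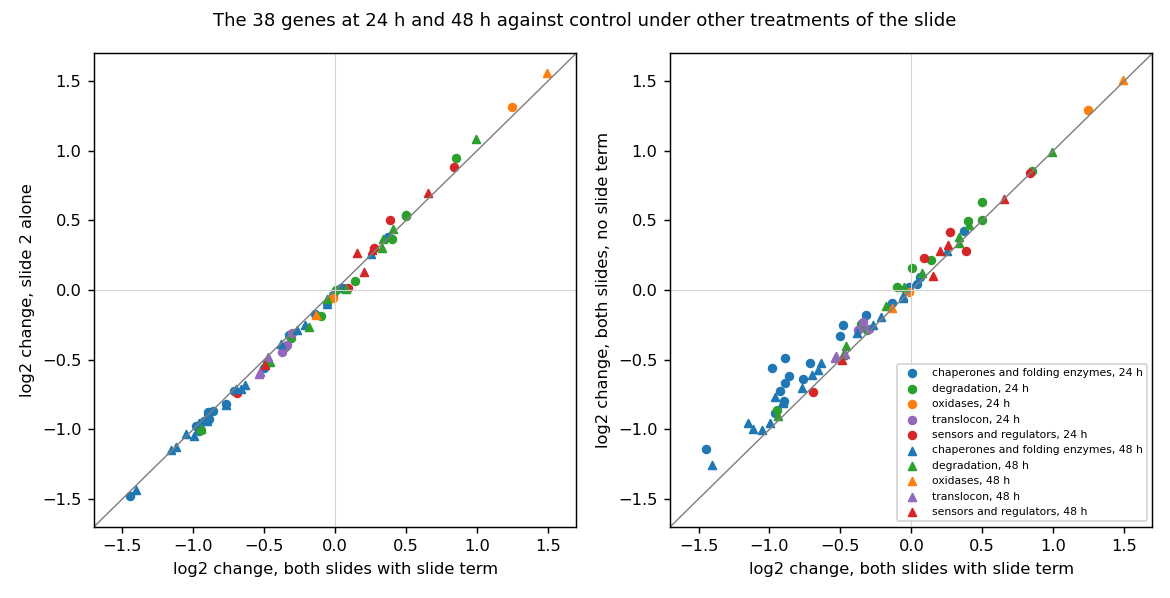
Log2 change of each of the 38 genes against control at 24 h (circles) and 48 h (triangles), with the fit of both slides and a slide term on the horizontal axis and, on the vertical axis, slide 2 alone (left) or both slides with no slide term (right). On the left the points follow the diagonal, and on the right the chaperones lie above it, Hsp90b1 at 24 h at -0.56 in place of -0.98. Samples of 24 and 48 h lie wholly on slide 2, so closeness to the diagonal on the left is largely set by the design.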

How the data were processed

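Mouse fibroblast RNA was measured on Agilent 2-colour arrays with 1 sample per channel. The deposited intensity values are median spot and local background signals per channel, read with Feature Extraction 10.7.3.1 (slide 1) and 11.0.1.1 (slide 2) per the file headers. They are not normalized. Both samples of an array carry the same file. A value table that the authors deposited gives log2 intensity for each spot, uncentred, with column medians of 6.90 to 6.91, and each column followed its own channel in the scanner values. R 2.15 and limma are named in the submitters' processing notes, and other steps were not given in the sources used.

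Normexp with an offset of 50 corrected the background, after which arrays were normalized internally by loess and scaled between arrays by Aquantile, in R 4.3.3 with limma 3.58.1. Outlier spots were left out and none of the spots used for the 38 genes was marked saturated. Probes were named by transcript accession through RefSeq genes of GRCm38.p6, a probe needed 4 of the 20 samples well above background, and each gene took its brightest probe. This left 24258 genes and transcripts, 14253 of them named. Limma fitted group, dye and slide over all 20 samples, with array as a random block (correlation 0.25). Two-sided p-values had Benjamini-Hochberg adjustment across everything tested, and calls are under 0.05. They measure the spread between these samples. The number of arrays limits the precision, and the normalization would not show a change common to all genes. The fit was tested on simulated data.

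The 38 genes and the other lists were chosen with earlier results of these data known. The rule for full values took Hspa5, Hsp90b1, Sdf2l1, Dnajb9, Herpud1, Ero1a, Atf6, Xbp1 and Ern1 plus, at each time, the 3 highest and 3 lowest called changes. Other genes were named among the 4 smallest adjusted p of a list. Replicate labels of number and dye did not pair samples across groups. Alternatives changed background correction, scaling, source of values, filter, probe choice, batch terms, blocks and samples.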

Additional observations from a re-analysis of the deposited data

Results flagged for a closer look

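Of 70 groups of 4 samples tested (the 5 groups of each of 14 genes), 3 held 1 sample far from the others, and chance flags about 1 in 20 groups. Hspa5 was at 15.64 in the 24 h sample 1_Cy3 and at 15.80 to 15.81 in the other samples of 24 h. Hsp90b1 was at 15.33 in the 24 h sample 2_Cy5 and at 15.19 to 15.20 in the others. Wfs1 was at 12.59 in the 72 h sample 2_Cy5 and at 12.71 to 12.72 in the others. These are log2 intensities with the dye and slide terms removed, and the calls of these genes at these times held without the sample named.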

How the results depend on the processing

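No chaperone median and no median of Herpud1, Ero1a and Wfs1 changed sign under any alternative. With no slide term, the chaperone median was -0.505, -0.656 and -0.290 at 24, 48 and 72 h. From slide 2 alone, the median of Herpud1, Ero1a and Wfs1 was 1.116, 0.946 and 1.084 at 6, 24 and 48 h, and with the compared groups only it was 1.096 at 48 h. Leaving out 1 sample gave 0.865 to 1.016 at 6 h and 0.886 to 1.034 at 48 h. At 6 h 17 of the 38 genes were called with array as a fixed block and 16 with the compared groups only. From 6 to 24 h 11 were called with no scaling between arrays and 11 with no slide term. From 24 to 48 h 0 were called with no scaling and with the compared groups only, 2 with no filter and with no dye term, 1 with no slide term and 7 from slide 2 alone, and 1 to 7 with 1 sample left out. From 48 to 72 h 9 were called with no scaling. Among the 14 genes with values in every sample, the changes that turned sign, called neither as reported nor where they turned, were Dnajb9 at 24 and 72 h with the mean of its probes (-0.022 and -0.018), Ern1 at 6 h from slide 2 alone (-0.059), and Ern1 at 24 h with the compared groups only (-0.018) or without the control 2_Cy5 (-0.032 to 0.312 over the single samples left out). Of the other genes, uncalled changes against control also turned sign, among them under another way to correct, scale or source the signals in Canx, Edem3, Derl2, Derl3, Ero1b and Crebrf, and with 1 sample left out in Hyou1 and Dnajc10 as well. The cause was not tested. Of the calls at 6, 24, 48 and 72 h, 16 of 26, 26 of 29, 28 of 30 and 25 of 29 held whichever sample was left out. The fixed array block could be fitted for 6 and 48 h only. Samples of different groups with the same number and dye did not deviate together (correlations -0.55 to 0.18, median -0.04). Samples within a group were not compared in this way. With the replicate block 25 of the 38 genes were called at 6 h, and Atf6 at 24 h was not called. Dim probes limit Derl3 and Crebrf.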

Other observations

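Other genes of the endoplasmic reticulum, counted from a list of 50, went the way of the chaperones. Of these 4 rose and 13 fell at 6 h, 4 rose and 32 fell at 24 h, 3 rose and 39 fell at 48 h, and 8 rose and 31 fell at 72 h. Of all genes 13.7%, 21.2%, 21.5% and 25.2% rose and 11.1%, 19.1%, 20.3% and 22.5% fell. Creb3l1, which encodes a membrane-bound factor related to ATF6, fell by 0.85 ± 0.08 at 24 h (adjusted p = 1.17e-07). Sec63, a J-domain partner of the translocon, fell by 0.82 ± 0.07 at 72 h (adjusted p = 1.19e-08). Fkbp7 and Fkbp10, prolyl isomerases of the compartment, fell by 0.79 ± 0.06 and 0.61 ± 0.05 at 48 h (highest adjusted p = 4.11e-08). The 4 that rose at 24 h were Atf6b, Os9 and both genes of the proteases that cut ATF6, Mbtps1 (0.27) and Mbtps2 (0.48), named after their values were seen. From 48 to 72 h 24 of the 50 rose and 4 fell (all genes 12.9% and 10.3%).

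Of 7 mRNAs known as targets of IRE1-dependent decay, 0 rose and 3 fell at 6 h and at 24 h, 0 rose and 5 fell at 48 h, and 2 rose and 3 fell at 72 h. Falls were called for 11.1%, 19.1%, 20.3% and 22.5% of all genes at these times, and rises for 13.7%, 21.2%, 21.5% and 25.2%. Col6a1 fell by 0.82 ± 0.07 at 48 h (adjusted p = 2.83e-08). Pdgfrb, which also stands in the list of fibroblast markers, fell by 0.83 ± 0.07 (adjusted p = 2.7e-08). Among the 10 fibroblast markers 9 fell at 48 h, and their part in these counts was not tested.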
